A study of Mus musculus with 4 samples.

Results

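Peaks of the chromatin-associated ubiquitin ligase Trim33 that lay at the ends of neighbouring genes were described in mouse T helper 17 (Th17) cells. A peak was a member when the ends of 2 or more protein-coding genes lay within 1000 bp of its summit, the base of highest signal. This rule chose 1172 of the 26631 peaks on chromosomes 1 to 19 (4.40%), from a deposited list of 27050. Another 6176 peaks had the end of a single gene in the same window, and 19283 had none. The position of the genes alone chose the members, and no height, width or sequence entered the rule.

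The study mapped Trim33 by chromatin immunoprecipitation and sequencing (ChIP-seq) in primary cells, with 2 Trim33 ChIP libraries and 2 input DNA libraries. Naive CD4+ T cells were taken from the spleen and lymph nodes of C57BL/6 mice and turned into Th17 cells in culture. The culture used plates coated with anti-CD3 and CD28, the cytokines IL-6 and TGF-b, and antibodies that block IL-4 and IFN-g. There was 1 condition, so no treatment or genotype was compared, and the antibody was Bethyl A301-060A. The deposited list was called on merged replicates, so each peak has 1 value, with no error between cultures and no known library depth. Peaks and gene ends are not independent replicates, and the p-values below describe this list only. Expression was not analysed here, so the cell type could not be checked against its markers.

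Trim33 reads modified histone H3 tails and takes part in TGF-beta signalling with SMAD proteins. Many mammalian genes lie head to head, with starts close together on opposite strands and a common bidirectional promoter between them, often a CpG island. Such pairs are common among housekeeping genes, including those of DNA repair, mitochondria and RNA processing. In a tandem or tail-to-head arrangement, the 3′ end of an upstream gene lies just before the start of the next gene on the same strand.

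The stretches between the starts of 10 head-to-head pairs show what lay under or beside these peaks. They are those of the named members whose starts were close enough for a promoter window to span the gap. The start of that window also had to fall exactly on the gene's annotated boundary. Other close named pairs, such as Smarcd2/Tcam1 and Atm/Npat, had no such window and are not shown. The stretches range from the high peak at Ranbp1/Trmt2a to the pair with the lowest member peak of all, Cdc26/Prpf4. Each runs 5′ to 3′ on the forward strand, from the base after the start of the minus-strand gene, named first, to the base before the start of the plus-strand gene. The sequences are from RefSeq, build GRCm38.p6 (mm10). Capitals mark matches on either strand to 6 promoter motifs. The GC box was searched as GGGCGG. The CCAAT box was searched by the letters of its name. The ETS motif was searched as CCGGAAG and the NRF1 motif as GCATGCGC. The CRE (TGACGTCA) and the YY1 motif (AAGATGGC) were also searched and had no match in these stretches. A match is a description of letters and not of a bound factor.
Ranbp1/Trmt2a, chr16:18248695-18248846: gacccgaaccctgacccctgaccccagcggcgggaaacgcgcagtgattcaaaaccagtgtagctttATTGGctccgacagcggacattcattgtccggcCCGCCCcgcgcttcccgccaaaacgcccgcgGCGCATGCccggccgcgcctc
Palb2/Dctn5, chr7:122132981-122133040: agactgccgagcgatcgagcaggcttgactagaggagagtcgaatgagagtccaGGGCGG
Helq/Mrps18c, chr5:100798662-100798758: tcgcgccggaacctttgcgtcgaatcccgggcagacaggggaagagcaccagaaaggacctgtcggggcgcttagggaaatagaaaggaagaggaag
Tfpt/Prpf31, chr7:3629930-3629984: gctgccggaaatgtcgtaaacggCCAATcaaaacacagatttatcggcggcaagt
Ptcd2/Mrps27, chr13:99344679-99344766: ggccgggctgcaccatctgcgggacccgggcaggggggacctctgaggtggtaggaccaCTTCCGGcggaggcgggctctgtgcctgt
Mitd1/Mrpl30, chr1:37890450-37890476: aaacctttcccggaaccaaagaaccgt
Rpa3/Umad1, chr6:8259142-8259287: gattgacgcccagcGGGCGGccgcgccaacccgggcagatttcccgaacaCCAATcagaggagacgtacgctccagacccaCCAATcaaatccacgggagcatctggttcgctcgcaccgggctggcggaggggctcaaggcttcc
Psmb9/Tap1, chr17:34187331-34187555: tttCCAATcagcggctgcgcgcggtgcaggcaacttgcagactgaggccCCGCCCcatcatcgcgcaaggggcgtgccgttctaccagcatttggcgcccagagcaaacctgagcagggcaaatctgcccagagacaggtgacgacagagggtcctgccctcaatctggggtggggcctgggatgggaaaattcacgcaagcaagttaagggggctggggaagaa
Erp44/Invs, chr4:48279636-48279706: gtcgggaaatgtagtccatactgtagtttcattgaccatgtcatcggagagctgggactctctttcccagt
Cdc26/Prpf4, chr4:62408626-62408761: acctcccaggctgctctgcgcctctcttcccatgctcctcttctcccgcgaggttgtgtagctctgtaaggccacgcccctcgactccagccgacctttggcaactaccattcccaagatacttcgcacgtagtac

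In the Ranbp1/Trmt2a stretch the summit was at base 124 of 152, inside the stretch, and the peak had a fold enrichment of 14.1. Fold enrichment is the authors' ratio of signal at the summit to its background. Ranbp1 encodes a binding protein of the Ran GTPase and Trmt2a a tRNA methyltransferase. The stretch held 19 CpG dinucleotides and 1 match each to the GC box, the CCAAT box and the NRF1 motif. In Palb2/Dctn5, where Palb2 is a partner of Brca2 in homologous recombination, the summit was at base 35 of 60 and the fold was 12.01. In Ptcd2/Mrps27 it was at base 53 of 88, with 10.6-fold enrichment and an ETS match. The summit at Helq/Mrps18c lay at base 14 of 97, and the stretch held none of the 6 motifs. Mitd1/Mrpl30, Erp44/Invs and Cdc26/Prpf4 held none either. At the pairs not yet described, the summit of the peak taken here lay outside the stretch. It did so by 12 bp on the Tfpt side at Tfpt/Prpf31 and by 722 bp on the Cdc26 side at Cdc26/Prpf4. The fold of these peaks ranged from 10.8 at Tfpt/Prpf31 to 2.43 at Cdc26/Prpf4. Erp44/Invs and Cdc26/Prpf4 each had another, higher member peak, with its summit inside the stretch. The summits were 117 bp apart at Erp44/Invs and 839 bp apart at Cdc26/Prpf4.

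The members held mostly pairs of starts. Of the 875 members whose genes had a known strand, 666 (76.1%) lay at head-to-head genes and 159 (18.2%) at genes in tail-to-head order. Starts on the same strand were found at 23 members, a start and a 3′ end on opposite strands at 14, and 3′ ends facing each other (tail-to-tail) at 12. At 1 member, Gm45929/Mef2b, both were 3′ ends on the same strand. Strand was not used for the other 297. The ends of 2 genes were in the window at 1151 members and those of 3 genes at 21.

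The 1172 peaks covered 1024 distinct sets of genes, of which 888 had 1 peak, 125 had 2 and 11 had 3 or more. Cbx3/Hnrnpa2b1, the promoter of a heterochromatin protein and a splicing factor from which a widely used chromatin-opening element was derived, had 4 peaks, the most of any set. Summits within 1000 bp of each other, counted as 1 site, gave 1025 sites. Among 76 head-to-head pairs with 2 peaks, the summits were a median of 478 bp apart (quartiles 362 and 708), and in 27 pairs (35.5%) they flanked both starts. In all, 2021 of 20665 protein-coding genes (9.78%) had an end at a member peak. Members made up from 1.96% of the peaks of chromosome 18 to 7.30% of those of chromosome 7. Per 100 protein-coding genes, they ran from 3.52 on chromosome 18 to 7.86 on chromosome 8, with 5.81 on chromosome 7.

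Gene ends with a neighbour carried a summit more often than gene ends without one. Of all 41330 ends, 18.0% had a summit within 1000 bp. The share was 33.2% (2054 of 6178) where the end of another gene lay within 1000 bp and 15.4% (5403 of 35152) where none did (Fisher's exact test, two-sided, adjusted p = 3.17e-217 over 12 tests). Neighbouring ends can be served by the same summit, so this share is higher by construction. With each summit counted for its nearest gene end only, a count added after seeing the data, the shares were 18.4% and 15.2% (Fisher's exact test, adjusted p = 2.47e-09).

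Starts paired head to head had the highest share among the kinds of end in the plot of occupancy by neighbour. Starts with a same-strand start nearby came next, at 58.7% (37 of 63, exact 95% binomial interval 45.6 to 71.0). That interval includes the head-to-head share given next. Of 1746 starts with an opposite-strand start nearby, 1134 (64.9%, exact 95% binomial interval 62.7 to 67.2) had a summit within 1000 bp. Of 13860 starts alone, 4026 did (29.0%, 28.3 to 29.8), and the difference passed Fisher's exact test (adjusted p = 2.52e-184). Most pairs entered that test and interval by both starts. With plus-strand starts only, the shares were 64.6% of 874 and 29.6% of 6900 (Fisher's exact test, adjusted p = 4.55e-88). A pair offers 2 starts, and 2 independent starts that each had the share of lone starts would give 49.7%. That value does not account for CpG content or for the overlap of the windows of paired starts. Within bands of CpG count the comparison with it turned round from 10 CpG upward, but not below. Counting each summit for its nearest end only gave 36.7% of head-to-head starts and 28.9% of lone starts (Fisher's exact test, adjusted p = 2.59e-10). The difference therefore fell from 35.9 to 7.79 percentage points and kept its direction. Of the 874 annotated head-to-head pairs, 562 (64.3%) had a summit within 1000 bp of both starts, 11 of 1 start only and 301 (34.4%) of neither.

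Close pairs did not all carry a peak. A summit lay within 1000 bp of the plus-strand start in 69.2% of the 279 pairs with starts 1 to 100 bp apart (63.4 to 74.5). It did so in 62.1% of 124 pairs at 101 to 200 bp, 60.6% of 109 at 201 to 400 bp, and 52.0% of 25 at 701 to 1000 bp (31.3 to 72.2). Where the genes overlapped by up to 300 bp, the share was 70.5% of 173 pairs. The intervals of neighbouring classes of distance overlap.

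**Figure D1:**
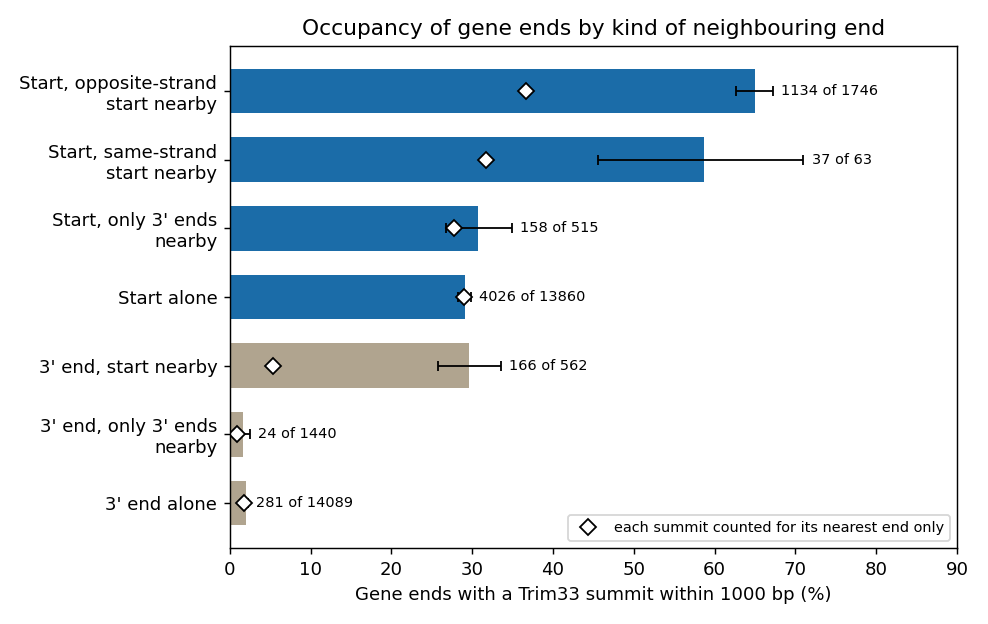
Share of gene ends (x axis, percent) with a Trim33 summit within 1000 bp, by kind of end and of neighbouring end. Bars give the share with exact 95% binomial intervals (counting error only), diamonds the share when each summit counts for its nearest end only; head-to-head starts stand at 64.9% by the bar and 36.7% by the diamond, and starts alone at 29.0% and 28.9%.

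Gene 3′ ends seldom had a summit unless a start was near. Starts whose only neighbours were 3′ ends had a summit in 30.7% of cases (158 of 515), against 29.0% of starts alone (Fisher's exact test, adjusted p = 0.484). A 3′ end had a summit in 29.5% of cases (166 of 562) when a start was nearby, and in 5.34% when each summit counted for its nearest end only. The share was 1.99% for 3′ ends alone (281 of 14089) and 1.67% for 3′ ends with other 3′ ends only (24 of 1440; Fisher's exact test, adjusted p = 0.484).

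The promoter windows of head-to-head starts held many CpG dinucleotides. Windows of 300 bases, from 250 before the start to 50 after, were used for 12679 genes whose window start lay within 100 bp of the gene's annotated boundary. The median was 26 CpG in head-to-head windows with a summit (quartiles 20 and 32; n = 874) and 19 in those without (n = 480). It was 23 in lone windows with a summit (n = 3199) and 5 in those without (n = 7541). The median GC content in the same order was 64.0%, 59.7%, 62.3% and 50.3%. These are descriptions with no test.

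Within bands of CpG count, the comparison of head-to-head and lone starts depended on how a shared summit was counted. With 20 to 29 CpG, 71.2% of 532 head-to-head starts (67.2 to 75.1) and 58.0% of 1998 lone starts (55.8 to 60.1) had a summit within 1000 bp. With 15 to 19 CpG the shares were 50.6% and 47.3%, and with 30 or more they were 77.4% and 69.8%. The starts of a pair were not independent, as only 11 of the 874 annotated pairs had a summit within 1000 bp of 1 start only. The value for 2 independent starts is thus a reference and not a test. That value, taken from the lone-start share, lay above the head-to-head share in every band from 10 CpG upward. It was 53.9% against 45.0% at 10 to 14 CpG, 72.2% against 50.6% at 15 to 19, 82.3% against 71.2% at 20 to 29, and 90.9% against 77.4% at 30 or more. Below 10 CpG the head-to-head share was the higher one, at 29.4% against 4.62% for 0 to 4 CpG and 34.9% against 24.2% for 5 to 9. Counting each summit for its nearest end only lowers the head-to-head share by construction, so that count cannot show that paired starts carried fewer summits. With it, the head-to-head share was below the lone-start share from 10 CpG upward. It was then 23.4% against 31.9% at 10 to 14 CpG, 27.5% against 47.1% at 15 to 19, 42.3% against 57.9% at 20 to 29, and 44.9% against 69.7% at 30 or more. At 0 to 4 CpG it was 8.82% (3 of 34) against 2.28% of 3853, so the direction was not the same in every band. The share rose with CpG count in both classes and under both counts.

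**Figure D2:**
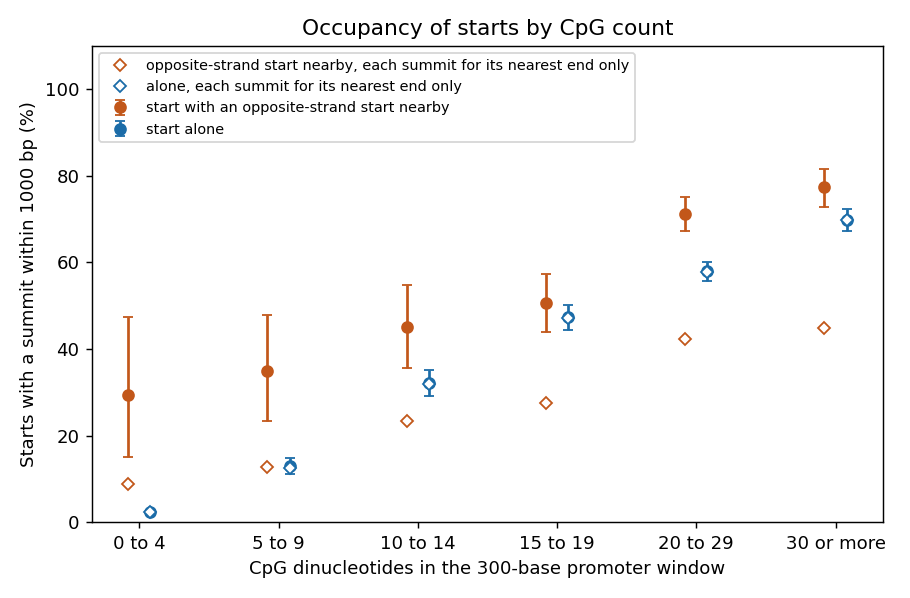
Share of starts with a summit within 1000 bp (y axis, percent) by the number of CpG dinucleotides in the 300-base promoter window (x axis), for head-to-head starts and starts alone. Circles have exact 95% binomial intervals and diamonds count each summit for its nearest end only. At 20 to 29 CpG the circles stand at 71.2% and 58.0%, and the diamonds at 42.3% and 57.9%. The diamonds are lower by construction for head-to-head starts.

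The letters of common promoter motifs were counted in the same windows, on both strands and with overlaps between motifs allowed. The ETS letters (CCGGAAG) were in 31.1% of head-to-head windows with a summit, 23.3% of those without, 21.6% of lone windows with a summit, 5.09% of lone windows without and 12.4% of all windows. The GC box (GGGCGG) was in 70.5%, 57.7%, 72.7%, 29.4% and 45.6% in the same order. The CCAAT letters were in fewer head-to-head windows with a summit (35.5%) than without (54.8%), with 40.7% over all windows. The TATA box (TATAAA) was in 3.89% of head-to-head windows with a summit, 8.33% of those without and 15.2% of all windows. The SMAD palindrome (GTCTAGAC) was in 1 of the 874 head-to-head windows with a summit (0.114%). It was in 2 of the 480 without (0.417%) and in 0.197% of all windows. The SMAD GC element (GGCGCC) was in 24.3% of head-to-head windows with a summit and 21.5% of those without. It was in 24.7% of lone windows with a summit and 14.9% of all windows. AP-1 (TGANTCA) and STAT (TTCNNNGAA) letters, those of factors active in T cells, were in 4.35% and 7.32% of head-to-head windows with a summit. Head-to-head windows without a summit held them in 2.29% and 8.96% of cases, and all windows in 7.41% and 8.37%.

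Summits at head-to-head genes lay close to the starts. The starts were apart at 415 members, by a median of 98 bp (quartiles 48 and 230), and the genes overlapped at 251. The summit was a median of 61 bp from its nearest start and 241 bp from the other. It lay within 100 bp of a start in 444 of 666 members (66.7%), against 2311 of 4628 peaks at single starts (49.9%), where there is only 1 start to be near. Where the starts were apart, 164 of 415 summits (39.5%, 34.8 to 44.4) lay between them. Of the other 251, 123 lay on the side of the plus-strand gene (49.0%, 42.7 to 55.4). Strand follows the orientation of the chromosome, so this share cannot show whether 1 gene of a pair was favoured. The called region covered both starts at 276 members (41.4%).

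**Figure D3:**
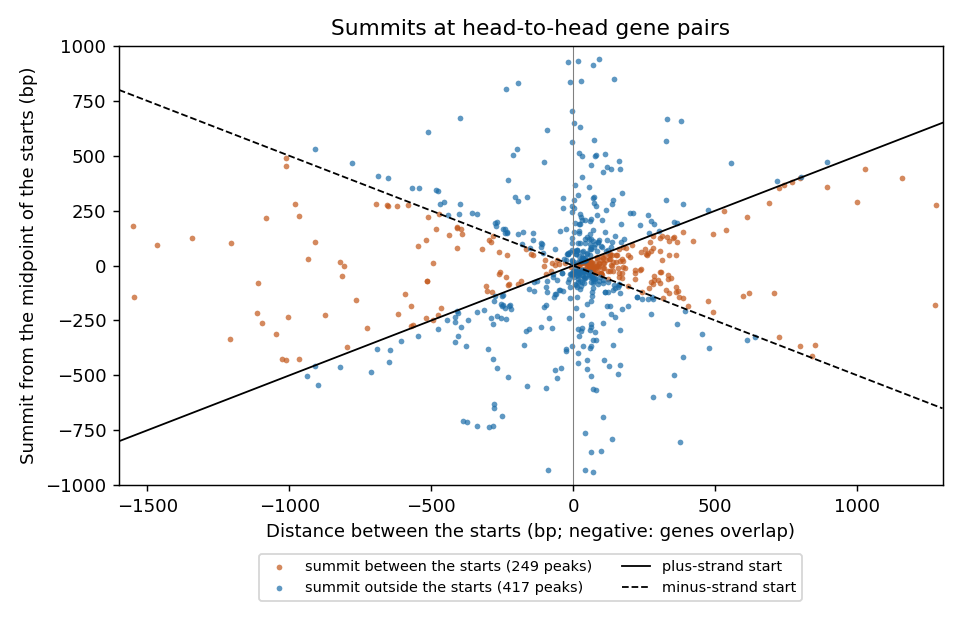
Position of each head-to-head summit from the midpoint of the starts (y axis, bp) against the distance between the starts (x axis, bp; negative where the genes overlap), 1 point per peak (666 peaks). Lines mark the starts; most points lie near the centre, with a median distance between separate starts of 98 bp.

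In tail-to-head members the summit followed the start. It lay nearer the start of the downstream gene than the 3′ end of the upstream gene in 130 of 159 members (81.8%, 74.9 to 87.4). The median distance was 116 bp to the start and 463 bp to the 3′ end. The summit lay upstream of the start in 87 members (54.7%, 46.6 to 62.6). At Adprhl2/Tekt2 it was 54 bp from the start of Adprhl2, which removes ADP-ribose from proteins, and 364 bp from the 3′ end of Tekt2, a tektin of cilia and flagella. At Tgfb1/B9d2 it was 22 bp from the start of Tgfb1, the TGF-beta 1 ligand, and 418 bp from the 3′ end of B9d2, a protein of the ciliary transition zone. Jund/Iqcn was among the exceptions, with the summit 176 bp from the 3′ end of Jund, an AP-1 subunit, and 529 bp from the start of Iqcn.

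**Figure D4:**
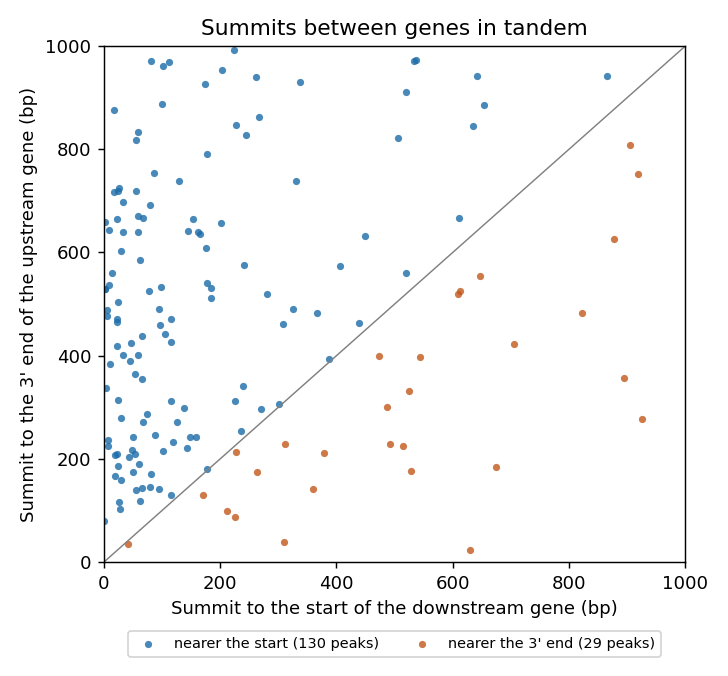
Distance from the summit to the start of the downstream gene (x axis, bp) and to the 3′ end of the upstream gene (y axis, bp) for the 159 tail-to-head members, 1 point per peak. Points above the line are nearer the start, as 130 of the 159 are.

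Few members were high peaks. Their median fold was 5.65 (quartiles 4.53 and 7.25, range 2.43 to 17.9), against 5.85 at single gene ends and 6.07 away from gene ends. A fold above the median of all peaks was found in 44.2% of members and 47.1% of single-end peaks, a difference that did not pass the test (Fisher's exact test, adjusted p = 0.126). In peaks away from gene ends the share was 51.2% (Fisher's exact test, adjusted p = 1.05e-05). A fold of 10 or more was found in 85 members (7.25%), where 11.1% of all peaks reached it. It was found in 572 single-end peaks (9.26%; Fisher's exact test, adjusted p = 0.0671). No member reached 20-fold, which 10 single-end peaks (0.162%) and 139 peaks away from gene ends (0.721%) did. With 1172 members, shares of that size amount to few peaks.

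Members and peaks at single gene ends did not differ in width beyond the test's threshold. The median width was 263 bp in members, 258 bp at single gene ends and 219 bp away from gene ends. A width above the median of all peaks was found in 62.4% of members and 59.8% of single-end peaks (Fisher's exact test, adjusted p = 0.146). Away from gene ends it was found in 46.0% of peaks (exact 95% binomial interval 45.3 to 46.7, against 59.5 to 65.2 in members), a difference that was not tested. It was found in 64.9% of head-to-head members and 60.5% of peaks at single starts (Fisher's exact test, adjusted p = 0.0671). Head-to-head members had a fold above the median in 43.4% of cases, against 46.4% of the members in other known arrangements (Fisher's exact test, adjusted p = 0.484). At single starts the share was 46.7% (Fisher's exact test against head-to-head, adjusted p = 0.165). The median fold was 5.66 at head-to-head and 5.73 at tail-to-head members. It was 8.26 at the 12 tail-to-tail members, of which 4 reached 10-fold (33.3%, 9.92 to 65.1), a difference not tested on its own. The 28 members whose second end lay 951 to 1000 bp from the summit had a median fold of 5.25, and the 20 peaks just outside the window, at 1001 to 1050 bp, had 6.23.

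**Figure D5:**
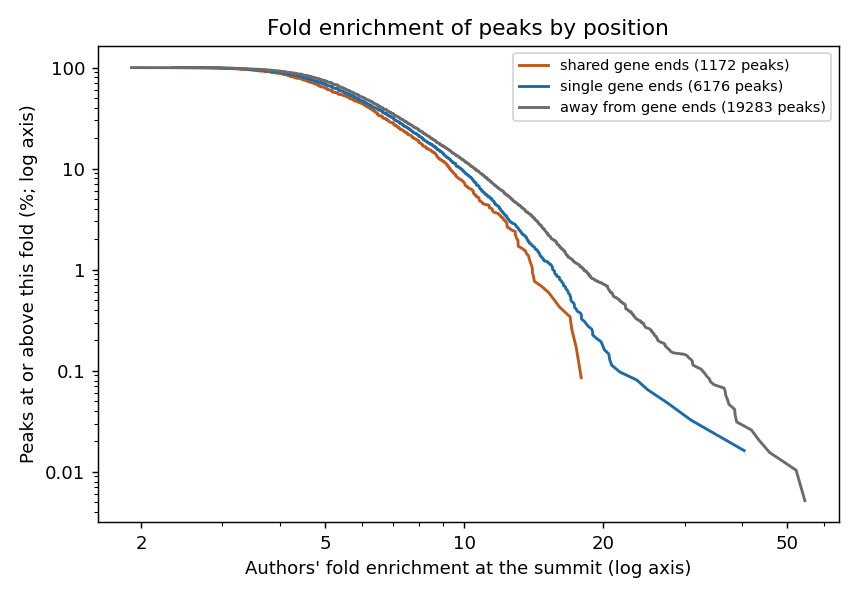
Share of peaks (y axis, percent, log axis) at or above each fold enrichment given by the authors (x axis, log axis), for 1172 peaks at shared gene ends, 6176 at single gene ends and 19283 away from gene ends. The shared ends run lowest at high fold and stop at 17.9.

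Fewer members than single-end peaks had the end of a long noncoding RNA (lncRNA) gene in the window. There were 41 such members (3.50%) and 852 such single-end peaks (13.8%; Fisher's exact test, adjusted p = 3.46e-28), with 5.54% among peaks away from gene ends. A miRNA gene end was in the window of 6 members (0.512%), against 0.761% of single-end peaks and 0.171% of peaks away from gene ends. For tRNA genes the shares were 0.256%, 0.308% and 0.171%, and for snoRNA genes 0.171%, 0.291% and 0.0726%.

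The highest members stood at genes of many kinds. The first was Hspd1/Hspe1 at 17.9-fold, the genes of the mitochondrial chaperonin and its co-chaperonin, whose annotated boundaries overlap by 95 bp. The summit was 134 bp from the start of Hspe1 and 229 bp from that of Hspd1. Smarcd2/Tcam1 followed at 17.5, where Smarcd2 is a subunit of the SWI/SNF chromatin remodeller. Htra2/Aup1 had 17.1-fold enrichment, with the summit 5 bp from an end of Htra2, a mitochondrial protease. Zcwpw2/Azi2 had 16.9, with Azi2 an adaptor of the kinase Tbk1 in innate signalling, and Adprhl2/Tekt2 had 16.1. Exoc5/Ap5m1, of the exocyst and of an adaptor complex of vesicle traffic, had 15.6.

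Others among the 12 highest ranged from 14.7 to 14.0. Pet117/Kat14, whose starts lie on the same strand, had 14.7, with Pet117 an assembly factor of cytochrome c oxidase and Kat14 a lysine acetyltransferase. Lamtor2, part of the Ragulator complex that places mTORC1 on lysosomes, shared a peak with Ubqln4 at 14.2. Its summit lay 11 bp from the start of Ubqln4 and 715 bp from that of Lamtor2. Atr, the kinase that answers replication stress, shared one with 1700065D16Rik at 14.0, and Zfp91/Lpxn also had 14.0. The lowest member peaks had 2.72 at Ptcd3/Polr1a, 2.64 at Erp44/Invs and 2.43 at Cdc26/Prpf4. Erp44/Invs and Cdc26/Prpf4 each had another, higher member peak as well.

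The 21 members with the ends of 3 genes had a median fold of 5.19 (range 3.24 to 8.71), against 5.65 over all members. The 6 highest are named here. Rad17/Taf9/Ak6 had 8.71, with the summit 10 bp from the start of Rad17, a loader of the checkpoint clamp. Gm27021/Emc8/Cox4i1 had 7.21, Eif4enif1/Gm51877/Sfi1 6.65, BC029722/Eif6/Mmp24 6.51, Smim27/Topors/Ndufb6 6.46 and Anxa9/Cers2/LOC115489748 6.22. Annotated gene models that share an end also count as a pair. Asnsd1 and its upstream reading frame gene Asdurf had the same end, 85 bp from a 6.04-fold summit, as did Prnp and Prn at 19 bp from a 6.25-fold summit. Xndc1/Xntrpc and Evi2/Evi2a were of the same kind.

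Of 16 well-known close gene pairs, 9 had a member peak, beside the 64.3% of all annotated head-to-head pairs with a summit near both starts. Besides Hspd1/Hspe1, these included Hars/Hars2 at 9.24, both histidyl-tRNA synthetases, and Ppat/Paics at 7.39, both of purine synthesis. Cbx3/Hnrnpa2b1 had 7.21, Prkdc/Mcm4 6.43, Gart/Son 4.90, Atm/Npat 3.52 and Psmb9/Tap1 3.44. Psmb9 is an immunoproteasome subunit and Tap1 a subunit of the peptide transporter of antigen presentation. No peak lay within 1000 bp of any end of Surf1/Surf2, Brca1/Nbr1, Col4a1/Col4a2, Tk1/Afmid, Mrps12/Sars2, Sirt3/Psmd13 and Acd/Pard6a.

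The share of genes at member peaks was highest in the lists of RNA processing and mitochondria among the 12 lists, as a description with no test. Beside the 9.78% of all protein-coding genes, an end at a member peak was found for 18 of 51 genes of splicing and RNA binding (35.3%). Examples were Sf3b2 at 12.1-fold, Hnrnpul1 at 11.9 and Prpf31 at 10.8. At Sf3b2 the gene's 3′ end lay near the summit, beside the start of Pacs1, and at Hnrnpul1 the start did. The mitochondrial ribosome had 27 of 78 genes (34.6%), led by Mrps18c at 11.1, Mrps27 at 10.6 and Mrpl30 at 9.88. A single 4.31-fold peak lay at Mrpl46/Mrps11, where both genes encode mitochondrial ribosomal proteins. Oxidative phosphorylation had 22 of 70 (31.4%), with Ndufa4 at 12.2, Atp5j at 10.5 and Ndufa5 at 8.11. Atp5j, an ATP synthase subunit, shares its peak with Gabpa, an ETS family factor. That summit lay 59 bp from the start of Gabpa and 907 bp from the start of Atp5j.

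Of the aminoacyl-tRNA synthetases, which charge tRNAs with amino acids, 10 of 37 had a member peak (27.0%), with Vars at 13.1 and Yars at 12.3. DNA repair had 15 of 58 (25.9%), with Atr at 14.0, Palb2 at 12.01 and Rad51d at 9.37. The last summit lay 665 bp from an end of Rad51d and 59 bp from the start of Rffl. DNA replication had 11 of 50 (22.0%), with Pold1 at 8.27, and Dna2 and Rpa3 at 6.66. The proteasome and antigen processing had 8 of 44 (18.2%), with Psmc2 at 10.8, Tapbp at 8.32 and Psmd8 at 6.39. Chromatin regulators had 10 of 66 (15.2%), with Kmt2b at 9.52, Kmt2d at 8.06 and Cbx3 at 7.21. At Tapbp and Kmt2d it was the gene's 3′ end that lay in the window. Cbx3 was counted in the splicing list too. Histone genes had 9 of 62 (14.5%) at a fold of 6.49 or less. Each of the 9 shared its peak with another gene of the list, so they are not 9 separate peaks. Hars and Hars2, and Psmb9 and Tap1, were likewise counted as separate genes at 1 peak. The end of another gene lay within 2000 bp for 80.6% of histone genes, against 33.2% of all genes. Of the histone genes with such a neighbour, 18.0% had a member peak, against 29.4% over all genes. A peak at any gene end was found for 25.8% of histone genes and 34.6% of all genes.

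The T cell and TGF-beta lists had 3 genes or fewer each at a member peak. Their shares were below the 9.78% of all genes, a difference that rests on very few genes and was not tested. In the T cell receptor, NF-kB and AP-1 list there were 3 of 43 (6.98%), namely Jund at 9.25, Nfkbie at 7.02 and the adaptor Lat at 5.06. Jund and Nfkbie had their 3′ end there and Lat its start. Of the TGF-beta and SMAD genes, 2 of 34 did (5.88%), namely Tgfb1 at 5.17 and the receptor Acvr1 at 4.31. The Th17, IL-10 and JAK-STAT list had 1 of 42 (2.38%), Il10rb at 4.51, beside the 3′ end of Ifnar2. The lists also differed in how many of their genes have a close neighbour. The end of another gene lay within 2000 bp for 64.1% of mitochondrial ribosome genes and 17.6% of TGF-beta genes, against 33.2% of all genes. Of the genes with such a neighbour, a member peak was found for 54.0% in the mitochondrial ribosome list, 33.3% in the TGF-beta list (2 of 6), 25% in the T cell receptor list (3 of 12) and 11.1% in the Th17 list (1 of 9). Over all genes it was 29.4%. A peak at any gene end, shared or single, was found for 73.5% of the TGF-beta list, 73.1% of the mitochondrial ribosome list and 34.6% of all genes.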

How the data were processed

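Trim33 ChIP-seq in mouse Th17 cells gave 4 libraries (2 ChIP, 2 input), grouped by the labels. The submitters' processing notes name MACS2 2.1.1.20160309, Bowtie 1.2.1.1, Trim Galore 0.3.7 and mm10. Their settings, the control and the threshold of the calls were not stated in the sources used. The authors called peaks on merged replicates. The deposited list gives for each peak a fold enrichment (a ratio), the −log10 of the p-value and of the q-value, and a score, which was not used. Library depth is unknown here, so intervals cover counting error only. A site strong in 1 library alone can thus be listed.

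Gene ends came from RefSeq (GRCm38.p6), with 20665 protein-coding genes. Strand was taken from RefSeq promoter windows, matched for 16457 genes, and a start is the outermost annotated base. Shares were compared by Fisher's exact test (two-sided, scipy 1.17.1, pandas 2.3.3, Python 3.11.15), adjusted by Benjamini-Hochberg over 12 tests with a threshold of 0.05. Of these tests, 6 were added after seeing the data. They include the occupancy of head-to-head starts, of starts with 3′ ends only and of 3′ ends with 3′ ends only. The others are fold and width at head-to-head members against single starts, and the share with a lncRNA end. Scripts were tested on simulated data.

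Members and lists were chosen with earlier results of these data known. The named genes are those at the 12 highest and 3 lowest members by fold, the 6 members with the most genes, and the 6 with the closest and the 6 with the farthest ends. They also include the 3 highest of each of 12 gene lists, and 16 known pairs. Values of 2 named members are not reported here.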

Additional observations from a re-analysis of the deposited data

How the results depend on the processing

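No paired analysis was possible because the authors merged the replicates before calling peaks, and no replicate could be left out for the same reason. Alternatives used windows of 500 and 2000 bp, other gene models, higher peaks, −log10 q in place of fold, and each summit counted for its nearest end only, which was added after seeing the data. Of 50 alternative values, 46 kept their side of the threshold or, for the number of members, stayed within 1.5 times the main count. Direction was kept in 43 of the 46 tested values. Starts with 3′ ends only minus starts alone turned without passing the test, to -1.19 points with a 500 bp window and -1.15 with each summit counted for its nearest end only. The cause of the changes below was not tested.

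The share at or above 10-fold, members minus single gene ends, passed Fisher's exact test with a 2000 bp window (-2.11 percentage points, adjusted p = 0.0143) and at 5-fold in place of 10-fold (-5.32, adjusted p = 0.000964). The difference between 3′ ends with 3′ ends only and 3′ ends alone turned with a 2000 bp window (1.47 points, Fisher's exact test, adjusted p = 0.00671). It passed the test in its first direction with each summit counted for its nearest end only (-0.97 points, Fisher's exact test, adjusted p = 0.0126). That count is lower by construction for ends with a neighbour.

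The number of members was 821 with a 500 bp window, 1629 with 2000 bp and 1065 without gene models named Gm, Rik or LOC. Without those and the olfactory and vomeronasal receptors (Olfr and Vmn), head-to-head starts stood 31.9 points above lone starts. With peaks at or above the median fold only, fewer by construction, they stood 16.6 points above, and ends with a neighbour stood 7.98 points above those without. The unknown library depth and the lack of values per culture limit every result.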
